A study of Drosophila melanogaster with 64 samples.

Results

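The Arp2/3 complex genes of Drosophila melanogaster were followed in fly heads through the days after traumatic brain injury (TBI). The members were the 8 genes Arp2, Arp3, Arpc1, Arpc2, Arpc3A, Arpc3B, Arpc4 and Arpc5, chosen by symbol from the 17481 genes of the count table, and all 8 had a row. The group was singled out with the TBI against sham results of these data already known. The TBI against sham values of the members are therefore given as a description, with no test of their own, and the counts of members that passed are set beside the share of all genes that did.

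The Arp2/3 complex starts new actin filaments as branches on the side of existing ones. It is idle until an activator of the WASP and SCAR/WAVE families brings it together with actin monomers, and the branched networks it builds push membranes forward. In flies the complex is known for its work in the ring canals of the female germline and in myoblast fusion, and in nervous tissue branched actin shapes growth cones, synapses and the processes of glia. Arp2 and Arp3 are the actin-like subunits that act as the base of the new filament, Arpc2 and Arpc4 form the structural core that grips the mother filament, and Arpc1, Arpc3 and Arpc5 complete the complex. The fly genome carries a pair of Arpc3 genes.

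All flies were males of the w[1118] strain (Bloomington stock 5905), which carries a mutant white gene and no listed transgene, kept at 25 C on standard medium with 12 h of light. TBI flies received a severe injury at 3 d of age and sham flies a sham treatment at the same age, which the labels do not describe further. Both were collected 1 h, 3 h, 6 h, 12 h, 24 h, 3 d, 7 d, 10 d and 15 d later, and uninjured control flies were taken at 3 d of age (time 0). Each sample was polyA RNA from 20 pooled whole heads, so that cell types were mixed, and in such bulk RNA fewer cells of a type and less RNA per cell cannot be told apart. Libraries were made on 2 days. Library day 2 held the 1 h to 24 h groups and library day 1 held the 24 h to 15 d groups, and the RNAs of the controls and of the 24 h groups were made into libraries on both days. Groups had 3 biological replicates per the labels, except TBI and sham at 15 d with 2 each.

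Gene counts summed to 18.6 to 44.9 M per library on day 2 (33 libraries, median 24.3 M) and to 9.16 to 26.4 M on day 1 (31 libraries, median 16.1 M). Levels are given as CPM, gene counts relative to the TMM-scaled library total of the same library day. Where the library days are compared, the scaling was over the libraries of both days together. Changes are given as log2 fold changes ± SE from an edgeR quasi-likelihood fit of all groups of a day. A gene is said to pass where its p, after Benjamini-Hochberg adjustment over the genes fitted, was under 0.05. The genes fitted numbered 10739 on day 2 and 10567 on day 1. All 8 members passed the filter on low counts on both days. Mitochondrial transcripts took 11.2% to 24.8% of gene counts on day 2 and 1.64% to 15.5% on day 1, and no pair of replicates was close enough to be a library deposited more than once.

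In libraries from sham and control flies, Arp2 and Arpc2 were the most and Arpc3B the least abundant transcripts of the complex on library day 2. Per kilobase of exon, the median level over the 18 sham and control libraries of day 2 was 29.0 CPM for Arp2, 26.7 for Arpc2, 17.1 for Arpc1, 16.3 for Arp3, 12.8 for Arpc4, 10.4 for Arpc3A, 8.77 for Arpc5 and 1.03 for Arpc3B. Arp2 and Arpc2 overlapped in their ranges over these libraries, from 25.0 to 32.6 for Arp2 and from 23.2 to 29.3 for Arpc2. Arpc1 (10.7 to 20.4), Arp3 (14.1 to 18.7) and Arpc4 (9.71 to 18.7) overlapped as well, and so did Arpc3A (8.80 to 12.4) and Arpc5 (7.25 to 10.4), so that neighbours in this part of the order did not differ beyond their spread. Arpc3B stood apart from all other members, with no library above 1.59. Over the 17 sham and control libraries of day 1 the order was another, with Arpc1 at 58.8, Arpc4 at 28.5, Arp2 at 26.8, Arpc2 at 22.6, Arpc5 at 18.1, Arp3 at 17.5, Arpc3A at 12.7 and Arpc3B at 1.18 CPM per kilobase. There Arpc1 (55.1 to 71.9) overlapped no other member, while Arpc4 (23.8 to 33.7) and Arp2 (24.6 to 32.2) overlapped each other. The order thus differed with the library day, which the RNAs prepared on both days allowed to be measured.

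In TBI heads the transcripts of the complex were higher than in sham heads at every time of the first day, by a median log2 fold change over the 8 members of 0.38 after 1 h, 0.77 after 3 h, 0.74 after 6 h, 0.83 after 12 h and 0.89 after 24 h on library day 2. The median over all genes tested lay between -0.00333 and 0.0240 at these times. At 1 h 4 of 8 members passed (Arp2, Arp3, Arpc2 and Arpc3A), beside 4.98% of all genes that passed as higher in TBI. That count at 1 h was 1 without TBI replicate 1, 1 without sham replicate 1 or 3, 2 without sham replicate 2 and 1 with no filter on low counts. The number of members was 8 after 3 h beside 10.5%, 6 after 6 h beside 7.88%, 7 after 12 h beside 4.99% and 8 after 24 h beside 6.2%. The 24 h RNAs prepared again on day 1 gave 8 of 8, beside 7.61%, with a member median of 0.88. No member passed as lower in TBI at any time, beside 2.41%, 6%, 4.26%, 3.63% and 2.2% of all genes from 1 h to 24 h on day 2 and 7.41%, 0.0946%, 0%, 0.00946% and 0.0284% from 24 h to 15 d on day 1.

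**Figure D1:**
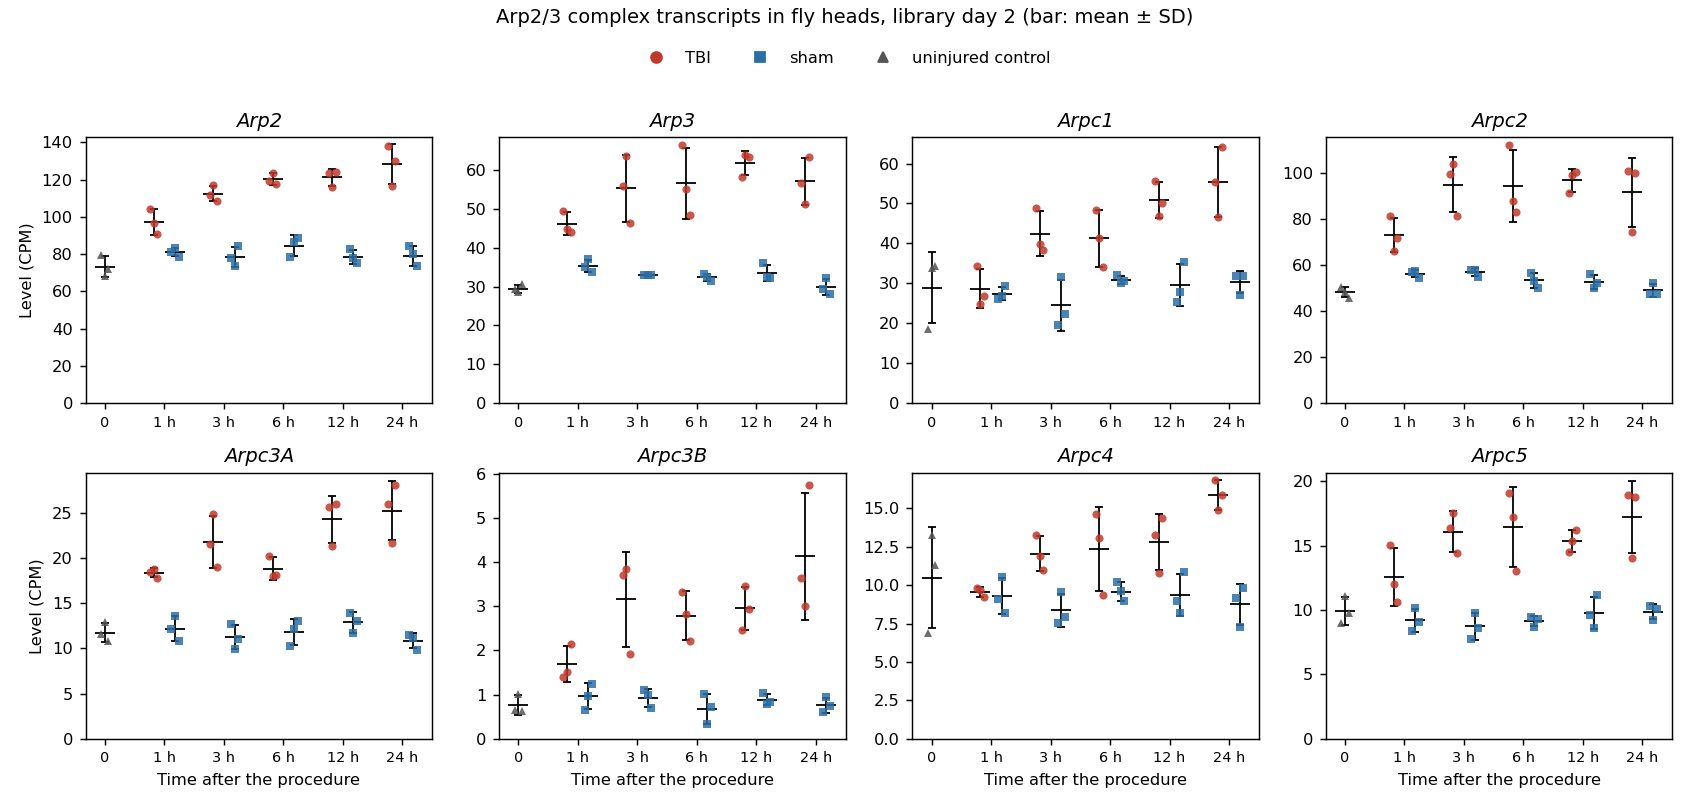
Level in CPM of each Arp2/3 complex gene in the libraries of day 2 against time after the procedure, with 1 point per library, a short line for the mean and a bar for the SD (n = 3 per group). The TBI points of all 8 genes lie above the sham points at 3 h and at 24 h, while Arpc1 and Arpc4 overlap at 1 h.

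Arp2 encodes one of the actin-like subunits (FBgn0011742, X:16548290-16553968, minus strand, BDGP6.54). At 1 h it had 104, 96.9 and 90.7 CPM in the TBI libraries, against 81.1, 83.2 and 78.7 CPM in sham libraries. By 6 h it had 119, 124 and 118 CPM in TBI, against 78.2, 86.6 and 88.8 CPM in sham. At 24 h on day 2 the TBI libraries had 138, 117 and 130.1 CPM, against 84.1, 79.8 and 73.5 CPM in sham. Every TBI library of the first day was above all 18 sham and control libraries of day 2, of which the highest had 88.8 CPM. Over sham it was higher by a log2 fold change of 0.26 ± 0.08 after 1 h, 0.52 ± 0.08 after 3 h, 0.51 ± 0.08 after 6 h, 0.62 ± 0.08 after 12 h and 0.70 ± 0.08 after 24 h. Its standard errors were the smallest of the 8 members on day 2, and its change at 24 h was 1.62-fold.

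Arp3, the other actin-like subunit (FBgn0262716, 3L:8113407-8115902, minus strand), had 49.5, 44.9 and 44.1 CPM in TBI libraries at 1 h, against 35.2, 37.03 and 33.8 CPM in sham libraries. The 3 h values were 55.8, 63.7 and 46.3 CPM in TBI and 32.9, 32.9 and 33.02 CPM in sham. At 24 h Arp3 had 56.6, 51.3 and 63.4 CPM in TBI, against 29.4, 32.1 and 28.01 CPM in sham. The groups did not overlap at any of the 5 times, and every TBI library of day 2 was above the highest sham or control library, at 37.03 CPM. Its log2 fold change was 0.39 ± 0.10 after 1 h, 0.75 ± 0.10 after 3 h, 0.81 ± 0.10 after 6 h, 0.88 ± 0.10 after 12 h and 0.94 ± 0.11 after 24 h.

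Arpc2 (FBgn0032859, 2L:20417057-20423027, plus strand) is one of the core subunits, and its introns hold 17 snoRNA genes, none of which overlaps its exons. Its TBI libraries had 81.05, 66.1 and 71.8 CPM at 1 h, against 57.01, 57.2 and 54.4 CPM in sham libraries. At 6 h they had 112, 87.9 and 82.8 CPM, against 56.6, 53.2 and 49.97 CPM in sham, and the TBI libraries spread more widely than the sham libraries. The 24 h values were 101, 74.3 and 99.7 CPM in TBI and 47.3, 52.1 and 47.5 CPM in sham. Here too every TBI library of the first day was above all sham and control libraries, the highest of which had 57.8 CPM. For Arpc2 the log2 fold change was 0.38 ± 0.11 after 1 h, 0.74 ± 0.11 after 3 h, 0.82 ± 0.11 after 6 h, 0.88 ± 0.11 after 12 h and 0.90 ± 0.11 after 24 h.

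Arpc4, its partner in the core (FBgn0284255, 2L:6125132-6125911, plus strand), was the member whose TBI and sham groups overlapped most often. At 1 h it had 9.85, 9.68 and 9.22 CPM in TBI libraries, against 9.09, 10.5 and 8.20 CPM in sham libraries. The groups overlapped after 1 h, 6 h and 12 h, and the log2 fold changes of 0.05 ± 0.19, 0.37 ± 0.18 and 0.46 ± 0.18 did not pass. At 3 h it had 13.3, 11.9 and 10.98 CPM in TBI and 7.56, 9.59 and 7.94 CPM in sham, a log2 fold change of 0.53 ± 0.18 that passed. At 24 h it had 16.8, 14.9 and 15.9 CPM in TBI, against 9.14, 7.29 and 9.83 CPM in sham, and the log2 fold change was 0.86 ± 0.18. Only at 24 h were all TBI libraries above every sham and control library of the day, of which 1 control library had the highest value at 13.3 CPM. Its exons overlap those of WDR79 on the opposite strand by 33 bp, 4.63% of the Arpc4 exon length, and WDR79 did not pass at any time.

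Arpc1 encodes the WD-repeat subunit that helps to bind activators (FBgn0001961, 2L:13827941-13829741, minus strand). Its TBI libraries had 34.3, 24.9 and 26.9 CPM at 1 h, against 26.2, 26.9 and 29.3 CPM in sham libraries, and the groups overlapped. At 3 h it had 48.8, 39.8 and 38.4 CPM in TBI, against 19.6, 31.7 and 22.2 CPM in sham. At 24 h the values were 55.3, 46.6 and 64.2 CPM in TBI and 31.9, 27.1 and 31.7 CPM in sham. The groups were separate from 3 h on, with log2 fold changes of 0.79 ± 0.19 after 3 h, 0.42 ± 0.19 after 6 h, 0.78 ± 0.19 after 12 h and 0.87 ± 0.19 after 24 h, of which that at 6 h did not pass. Arpc1 and Arpc4 had larger standard errors on day 2 than all other members except Arpc3B, and in both the control library of replicate 1 was the lowest of all sham and control libraries, at 18.6 CPM for Arpc1 and 6.92 CPM for Arpc4.

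Arpc5 encodes the subunit that ties Arp2 to the rest of the complex (FBgn0031437, 2L:2580292-2581423, plus strand). It had 15.03, 12.01 and 10.6 CPM in TBI libraries at 1 h, against 8.35, 10.2 and 9.03 CPM in sham libraries. These groups did not overlap, but the log2 fold change of 0.45 ± 0.15 did not pass. By 3 h Arpc5 had 16.4, 17.5 and 14.4 CPM in TBI, against 7.76, 9.79 and 8.60 CPM in sham, and at 24 h 18.9, 13.99 and 18.8 CPM in TBI, against 10.3, 9.20 and 10.1 CPM in sham, with no overlap at either time. The log2 fold change was 0.88 ± 0.14 after 3 h, 0.84 ± 0.14 after 6 h, 0.65 ± 0.14 after 12 h and 0.80 ± 0.14 after 24 h, and passed at each of these. Its exons overlap those of Drp1, the gene of the mitochondrial fission GTPase, on the opposite strand by 143 bp, which is 13.4% of the Arpc5 exon length. How strand was handled in counting is not known here, so reads in that stretch may belong to either gene. Drp1 itself passed only at 3 h, with a log2 fold change of 0.34 ± 0.09.

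The Arpc3 genes encode versions of the small subunit that lies beside Arp3. Arpc3A (FBgn0038369, 3R:15834648-15836021, plus strand) had 18.5, 18.8 and 17.9 CPM in TBI libraries at 1 h, against 12.2, 13.6 and 10.8 CPM in sham libraries. At 24 h it had 26.1, 21.7 and 28.1 CPM in TBI, against 11.5, 11.2 and 9.89 CPM in sham. All TBI libraries of day 2 were above all of its sham and control libraries, whose highest value was 13.97 CPM, and the log2 fold change was 0.60 ± 0.12 after 1 h, 0.95 ± 0.12 after 3 h, 0.67 ± 0.12 after 6 h, 0.91 ± 0.12 after 12 h and 1.22 ± 0.12 after 24 h. Of the 4 members that passed at 1 h it had the largest change, 1.51-fold.

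Arpc3B (FBgn0065032, X:17104571-17105852, minus strand) was the rarest transcript and had the largest fold change of the 8 at each time of day 2. It had 1.40, 1.52 and 2.16 CPM in TBI libraries at 1 h, against 0.656, 0.977 and 1.25 CPM in sham libraries. The 3 h values were 3.72, 3.84 and 1.92 CPM in TBI and 1.09, 0.995 and 0.696 CPM in sham. At 24 h on day 2 it had 3.64, 3.01 and 5.75 CPM in TBI, against 0.596, 0.937 and 0.731 CPM in sham. No TBI library of day 2 was as low as the highest sham or control library, at 1.25 CPM. These levels rest on 7 to 141 reads per library. The log2 fold change was 0.80 ± 0.35 after 1 h, which did not pass, 1.75 ± 0.32 after 3 h, 1.99 ± 0.33 after 6 h, 1.73 ± 0.32 after 12 h and 2.44 ± 0.33 after 24 h. The last is a 5.44-fold difference.

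**Figure D2:**
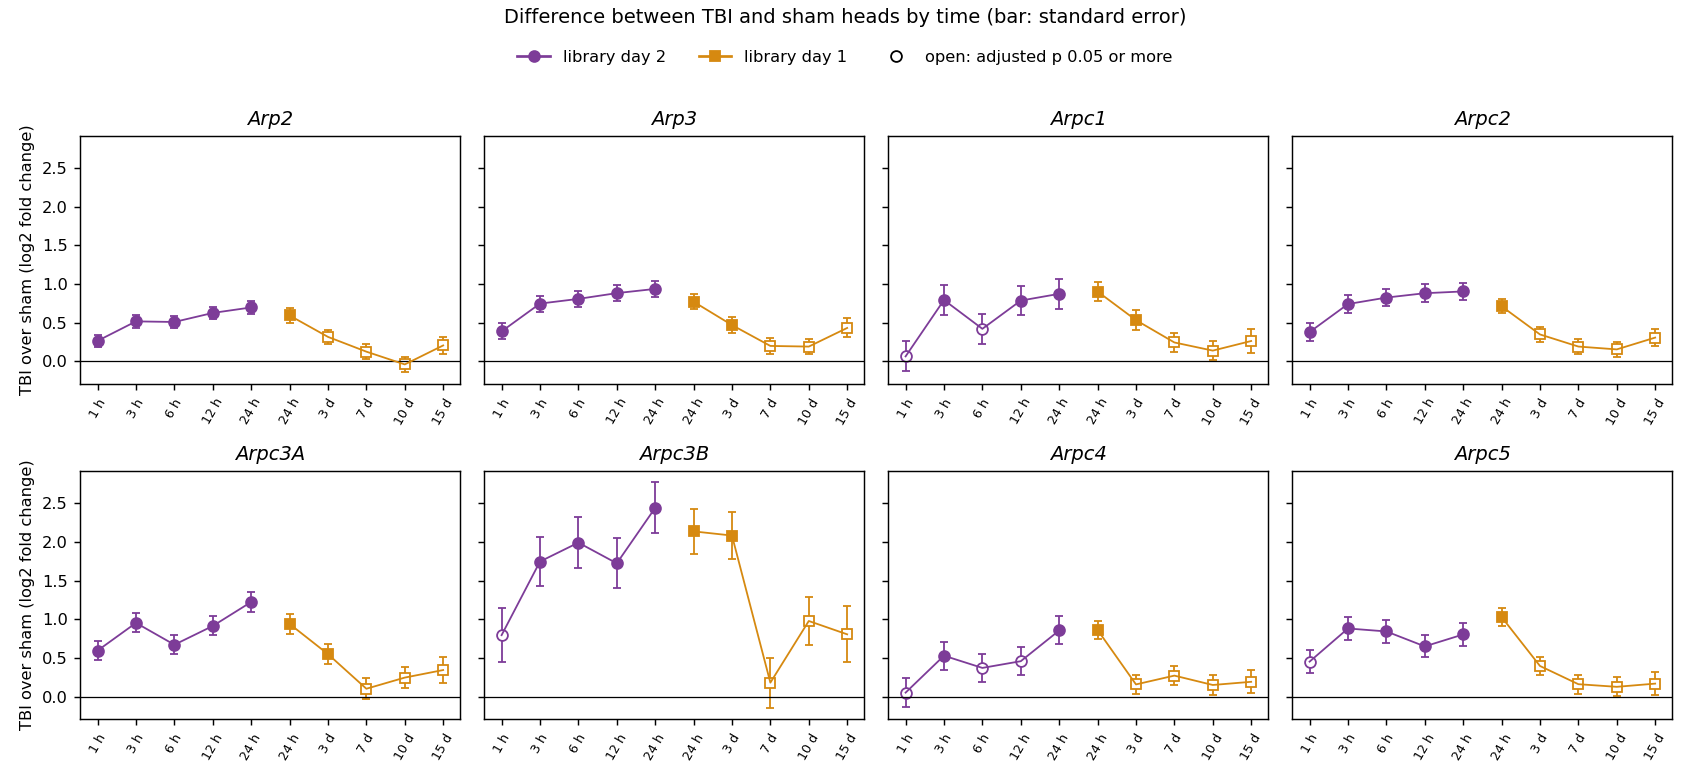
Log2 fold change of each Arp2/3 complex gene in TBI over sham heads against time, with bars for the SE from the edgeR fit, for library day 2 (1 h to 24 h) and library day 1 (24 h to 15 d). Filled points passed and open points did not: all 8 genes lie above 0 from 1 h to 7 d, and Arpc3B lies farthest from 0 at all times except 7 d.

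On library day 1 the difference between TBI and sham at 24 h was present in all 8 members again, and the estimates for all later times were lower, in Arpc3B at 3 d by no more than its standard error. At 24 h on this day Arpc1 had 216, 163 and 203 CPM in TBI libraries, against 112, 99.5 and 99.8 CPM in sham libraries. Arp3 had 66.4, 55.4 and 72.7 CPM in TBI, against 38.6, 37.9 and 37.5 CPM in sham. Arpc5 had 32.6, 28.4 and 35.1 CPM in TBI, against 14.02, 14.5 and 18.5 CPM in sham. In all 8 members every TBI library at 24 h was above every sham and control library of day 1. Arpc3A had 37.8, 29.5 and 33.4 CPM in TBI, against 21.2, 17.3 and 14.01 CPM in sham, and its sham libraries spread widely. Arpc3B had 5.38, 2.56 and 4.91 CPM in TBI, against 1.01, 0.622 and 1.29 CPM in sham, where 1 TBI library was well below the other pair. The log2 fold changes at 24 h were 0.59 ± 0.09 for Arp2, 0.77 ± 0.10 for Arp3, 0.90 ± 0.13 for Arpc1, 0.71 ± 0.09 for Arpc2, 0.94 ± 0.13 for Arpc3A, 2.14 ± 0.29 for Arpc3B, 0.86 ± 0.12 for Arpc4 and 1.03 ± 0.12 for Arpc5. In TBI and sham alike these are the RNAs of the 24 h groups of day 2, so the values are a second measurement and not a further set of flies.

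At 3 d the member median was 0.43, and 4 of 8 members passed (Arp3, Arpc1, Arpc3A and Arpc3B), beside 1.26% of all genes higher in TBI. Arp3 had 42.6, 55.8 and 44.5 CPM in TBI libraries, against 34.2, 35.2 and 33.9 CPM in sham libraries. Arpc3B had 3.07, 4.35 and 3.20 CPM in TBI, against 0.622, 0.930 and 0.921 CPM in sham. Arpc4 had 21.5, 27.4 and 20.5 CPM in TBI, against 20.5, 19.1 and 22.5 CPM in sham, and was the only member whose groups overlapped. The log2 fold change at 3 d was 2.08 ± 0.30 for Arpc3B, from 0.35 ± 0.09 to 0.55 ± 0.13 for Arpc2, Arpc5, Arp3, Arpc1 and Arpc3A, 0.31 ± 0.09 for Arp2 and 0.16 ± 0.12 for Arpc4. Leaving out sham replicate 1, 2 or 3 or TBI replicate 2 at 3 d left 1 of 8 members passing.

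From 7 d to 15 d no member passed in the edgeR fit, beside 0.227% of all genes higher in TBI at 7 d, 0.464% after 10 d and 0.00946% after 15 d. At an unadjusted p under 0.05 the count of members was 1 at 7 d beside 6.44% of all genes, 1 at 10 d beside 7.49% and 4 at 15 d beside 6.54%, and DESeq2 called 0 at each of the 3 times. The member median was 0.19 at 7 d, 0.15 at 10 d and 0.28 at 15 d. Arp3 had 39.3, 42.2 and 38.4 CPM in TBI and 38.01, 34.6 and 31.96 CPM in sham at 7 d, with no overlap. Arpc2 had 50.6, 50.2 and 54.96 CPM in TBI and 45.02, 44.4 and 47.2 CPM in sham at 7 d, where the groups were also separate, and the other 6 members overlapped. At 10 d Arp2 had 69.3, 64.4 and 71.3 CPM in TBI and 69.05, 74.7 and 67.2 CPM in sham, and was the only member with a negative log2 fold change, -0.04 ± 0.09. Arpc3B had 1.78, 2.00 and 1.78 CPM in TBI, against 0.766, 0.804 and 1.25 CPM in sham at 10 d, and 2.04 and 1.86 CPM in TBI, against 1.00 and 1.21 CPM in sham at 15 d. Those log2 fold changes were 0.98 ± 0.32 and 0.81 ± 0.36. At 15 d, with 2 libraries a group, both TBI libraries were above both sham libraries in all 8 members, beside 17.7% of all genes.

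**Figure D3:**
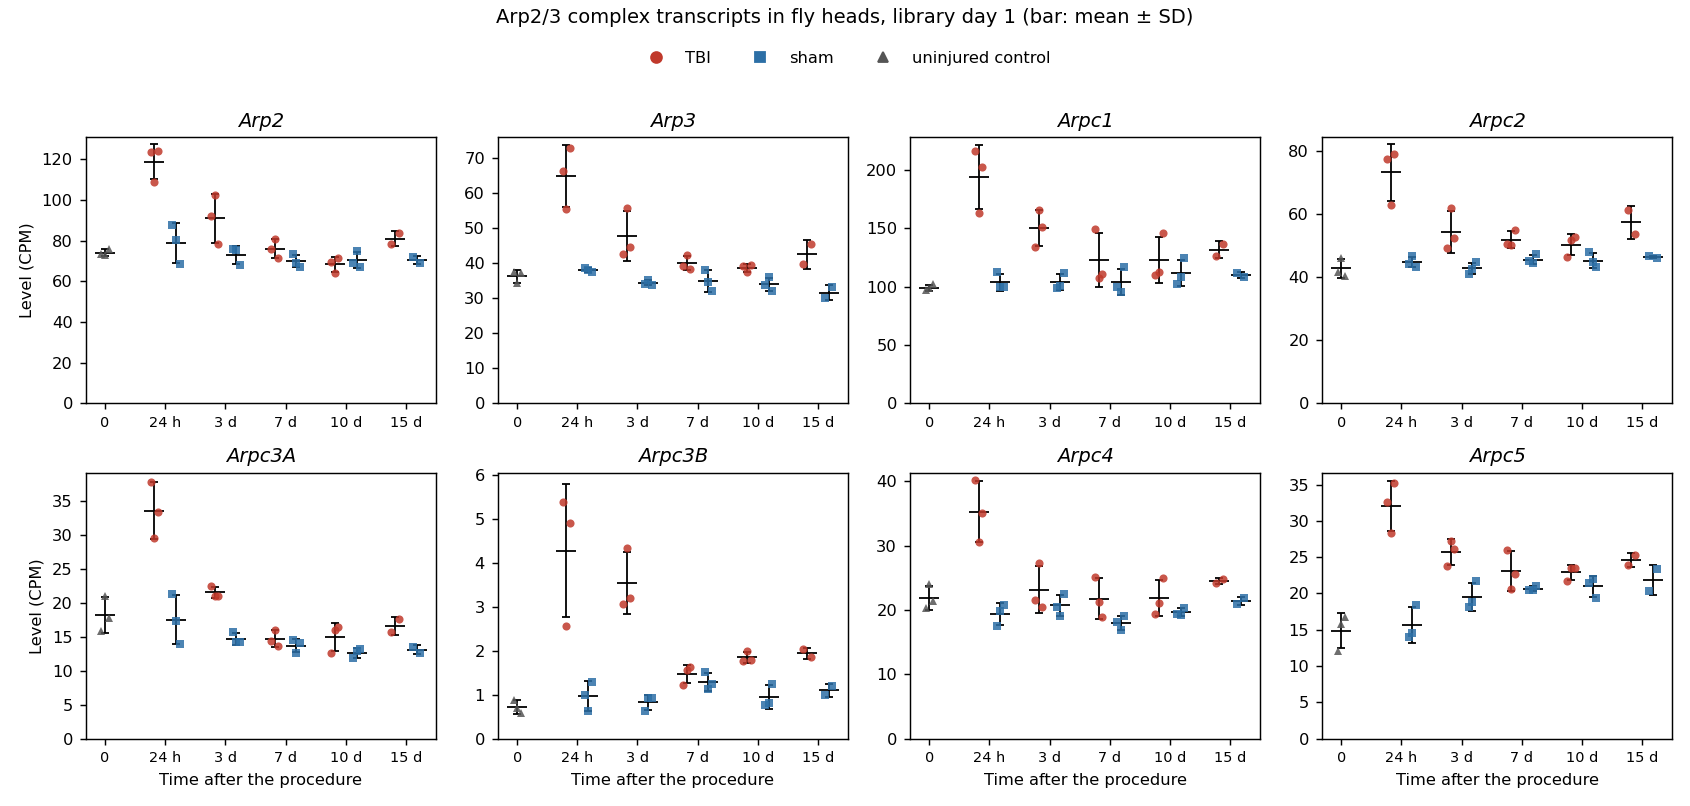
Level in CPM of each Arp2/3 complex gene in the libraries of day 1 against time after the procedure, with 1 point per library, a short line for the mean and a bar for the SD (n = 3 per group, 2 at 15 d). The mean of the TBI points is highest at 24 h in 8 of 8 genes, and at 7 d and 10 d the TBI points lie close to or among the sham points, except for Arpc3B at 10 d.

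Set against all sham and control libraries of the same day, the number of members in which every TBI library was above every such library was 5 after 1 h, 7 after 3 h, 6 after 6 h, 7 after 12 h and 8 after 24 h on day 2. The same held for 6.23%, 7.59%, 5.21%, 5.52% and 4.88% of all genes from 1 h to 24 h. On day 1 the number was 8 at 24 h, 5 at 3 d, 1 at 7 d (Arpc2), 1 at 10 d (Arpc3B) and 6 at 15 d, beside 4.97%, 1.52%, 0.908%, 2.35% and 4.33% of all genes. Compared with the sham group of the same time only, the groups were separate in 6, 8, 7, 7 and 8 members from 1 h to 24 h on day 2, beside 15.7%, 16.9%, 13.2%, 13.5% and 17% of all genes. On day 1 they were separate in 8, 7, 2 and 2 members from 24 h to 10 d, beside 17.6%, 9.27%, 7.7% and 8.02% of all genes.

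The size of the TBI effect was also compared between times within a library day. On day 2 the log2 fold change at 24 h minus that at 1 h was positive in all members, from 0.35 ± 0.21 in Arpc5 to 1.65 ± 0.48 in Arpc3B. The joint test over the 5 times passed for 0 of 8 members, beside 3.68% of all genes. At an unadjusted p under 0.05 the edgeR fit had 6 members, beside 15.2% of all genes, and DESeq2 called 0. On day 1 the effect at 3 d minus that at 24 h was -0.70 ± 0.17 in Arpc4, -0.63 ± 0.17 in Arpc5 and -0.05 ± 0.43 in Arpc3B, where the standard error was the largest of the 8. At 7 d the difference of Arpc3B to 24 h was -1.96 ± 0.43. The joint test of day 1 passed for Arpc5 alone, beside 0.407% of all genes, while the 8 members lay between -1.16 ± 0.43 (Arpc3B) and -0.56 ± 0.13 (Arpc2) for 10 d minus 24 h. That count depended on the method, with 8 members called by DESeq2, beside 1.63% of all genes it tested, and on single libraries, with 0 to 7 members when 1 library was left out.

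The mean share of Arpc3B among the Arpc3 transcripts was higher in TBI than in sham libraries in all 10 comparisons, by amounts that varied between times. Per exon length, Arpc3B made up 18.6% ± 3.5 of the summed Arpc3A and Arpc3B level in TBI libraries at 24 h on day 2, against 9.06% ± 1.95 in sham libraries (SD, n = 3 each). On day 1 the share at 24 h was 15.1% ± 3.5 in TBI, against 7.62% ± 3.55 in sham. At 3 d it was 19.0% ± 3.4 in TBI, against 7.46% ± 1.82 in sham, and at 7 d it was 12.6% ± 1.9 in TBI and 11.9% ± 1.0 in sham. At 3 h it was 16.8% ± 3.7 in TBI, against 10.6% ± 2.1 in sham, at 6 h 17.4% ± 2.2 in TBI, against 7.74% ± 4.32 in sham, and at 12 h 14.9% ± 3.5 in TBI, against 8.90% ± 0.63 in sham. The late shares were 15.1% ± 1.6 in TBI, against 9.54% ± 2.09 in sham at 10 d, and 14.4% ± 1.8 in TBI, against 10.8% ± 1.7 in sham at 15 d (n = 2 each). Control libraries had 8.42% ± 1.52 on day 2 and 5.43% ± 1.67 on day 1. At 1 h the shares were 11.6% ± 2.7 in TBI and 10.2% ± 3.6 in sham, a difference within the SD of either group. Arpc3A thus remained the main Arpc3 transcript in every library, the highest Arpc3B share being 22.8%. As Arpc3A and Arpc3B are paralogs, their split is uncertain where reads fit both.

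Sham and control flies were also compared. The members were chosen with earlier results of these data known, and the sham libraries enter the TBI against sham contrast as well. The p-values between sham and control are therefore not independent of that choice. The sham flies were older than the controls by the time since the procedure, so that age and handling cannot be told apart, and all comparisons of a day share the same 3 control libraries. On day 2 no member passed between sham and control at any of the 5 times in the edgeR fit, and the joint test over the 6 groups passed for 0 of 8 members, beside 11.3% of all genes. At an unadjusted p under 0.05 there was 1 member at each of 1 h, 3 h and 6 h, 0 at 12 h and 24 h and 0 in the joint test, and DESeq2 called 0 in all of these. The unadjusted p was under 0.05 for 5.38%, 15.2%, 16.6%, 21.2% and 13.1% of all genes from 1 h to 24 h and for 26.1% in the joint test. The share of all genes that passed from 1 h to 24 h was 0.391%, 0.233%, 1.39%, 2.5% and 0.754% higher and 0.0466%, 0.13%, 1.73%, 3.31% and 0.521% lower in sham. Arp2 had the lowest adjusted p of these comparisons (0.177 in the edgeR fit at 6 h), with 78.2, 86.6 and 88.8 CPM in sham libraries, against 79.6, 68.3 and 72.1 CPM in control libraries, and these groups overlapped. Leaving out control replicate 1 brought 1 member past the threshold at 3 h, Arpc4, with a log2 fold change of -0.56 ± 0.16 in sham over control (edgeR adjusted p = 0.0267).

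At 24 h on day 1 the count was again 0, also by DESeq2, beside 1.41% of all genes higher and 0.681% lower in sham. It was 0 at an unadjusted p under 0.05 too, beside 18.4% of all genes. The joint test over the sham and control groups of day 1 passed for Arpc5 (adjusted p = 0.00301) and Arpc3A (adjusted p = 0.00994) in the edgeR fit, 2 of 8 members, beside 34.3% of all genes. That count was no more than the share of all genes, so it does not set the members apart. Arpc5 had 14.02, 14.5 and 18.5 CPM in sham libraries at 24 h, 18.1, 18.8 and 21.6 at 3 d, 20.5, 20.5 and 21.1 at 7 d, 21.5, 22.1 and 19.3 at 10 d and 20.4 and 23.3 at 15 d, against 12.1, 15.8 and 16.7 CPM in control libraries. From 3 d on every sham library was above every control library. The log2 fold change over the controls was 0.39 ± 0.12 at 3 d (edgeR adjusted p = 0.0229), 0.47 ± 0.13 at 7 d (0.00608), 0.50 ± 0.12 at 10 d (0.00302) and 0.56 ± 0.14 at 15 d (0.00261). At these times 10.3%, 13.3%, 19.3% and 17.5% of all genes passed as higher in sham. In fits of only the groups compared, Arpc5 did not pass at 3 d (adjusted p = 0.121), 7 d (0.0587) or 15 d (0.0730). Without control replicate 1 its edgeR adjusted p was 0.146 at 3 d and 0.0504 at 7 d, and without sham replicate 3 it was 0.0917 at 3 d.

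Arpc3A was lower in the same sham flies. It had 21.2, 17.3 and 14.01 CPM in sham libraries at 24 h, 15.7, 14.2 and 14.2 at 3 d, 14.5, 12.6 and 14.01 at 7 d, 11.8, 12.9 and 13.2 at 10 d and 13.6 and 12.6 at 15 d, against 15.9, 21.04 and 17.8 CPM in control libraries. From 3 d on every sham library was below every control library. The log2 fold change was -0.31 ± 0.13 at 3 d, which did not pass (edgeR adjusted p = 0.0921), -0.41 ± 0.14 at 7 d (0.0257), -0.53 ± 0.14 at 10 d (0.00365) and -0.48 ± 0.15 at 15 d (0.0162). From 3 d to 15 d 13.6%, 16%, 18.6% and 17.9% of all genes passed as lower in sham. Leaving out control replicate 2 gave an edgeR adjusted p of 0.162 at 7 d and 0.0999 at 15 d. Leaving out sham replicate 2 or 3 gave 0.0993 or 0.0562 at 7 d, and leaving out sham replicate 1 or 2 gave 0.0596 or 0.157 at 15 d. Without a filter on low counts the adjusted p at 7 d was 0.0572, and fits of only the groups compared gave 0.114 at 7 d and 0.107 at 15 d. Marker genes moved between sham and control as well, with 4 of 9 muscle genes lower in sham at 3 d and 5 of 9 at 7 d, 10 d and 15 d. Of 8 glial genes, 2 were lower at 3 d and 3 at the later times. The neuron genes all passed as lower at 10 d and 15 d, and all but elav did at 3 d and 7 d. At 10 d their log2 fold changes ran from -0.48 (nSyb) to -1.34 (Gad1). Of the hemocyte genes, NimC1 passed as higher from 3 d to 15 d (1.13 to 1.68). Pxn passed as lower at 10 d and 15 d (-0.43 and -0.54), as did the fat body gene Lsp2 at 15 d (-2.19). The part of these cell types in the levels of Arpc5 and Arpc3A was not tested. The other 6 members did not pass between sham and control at any time of day 1, and the sham values of Arpc5 and Arpc3A are the base against which their late TBI values were set.

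As with most genes, the level of most members differed between the library days although the RNA was the same. In the 9 RNAs that were prepared on both days, tested with the RNA as a block, 6 of 8 members passed, beside 33.7% of all genes higher and 31.5% lower on day 2. The CPM values of this comparison were scaled over both days together, so they differ from those given above for the same libraries. Arpc1 had 41.3 ± 15.6 CPM on day 2 and 118 ± 45 CPM on day 1 (SD, n = 9 RNAs), with a log2 fold change of day 2 over day 1 of -1.53 ± 0.07 (edgeR adjusted p = 4.73e-09). It was higher on day 1 in 9 of 9 RNAs, by 2.88-fold, and 2.27% of genes differed by more. Arpc4 had 12.7 ± 4.0 CPM on day 2 and 22.8 ± 7.3 CPM on day 1, with a log2 fold change of -0.86 ± 0.08, and 12.9% of genes differed by more. Arpc5 and Arpc3A were lower on day 2 as well, by log2 fold changes of -0.45 ± 0.08 and -0.29 ± 0.06. Larger differences than these were found in 40.1% and 58.4% of genes. Arp2 and Arpc2 were higher on day 2, by 0.31 ± 0.04 and 0.49 ± 0.04, and 54.9% and 36.3% of genes differed by more. Arp3 (0.00 ± 0.04, edgeR adjusted p = 0.940) and Arpc3B (0.17 ± 0.18, edgeR adjusted p = 0.404) did not pass. The members that were lower on day 2 have exon lengths of 712 to 1732 bp and those that were higher have 1974 and 2729 bp. Arp3 and Arpc3B, which did not pass, have 1983 and 786 bp. Across 10663 genes the Spearman correlation of the day difference with exon length was -0.03. The cause of the day difference was not tested. Levels of 1 subunit relative to another were therefore read within a library day only.

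**Figure D4:**
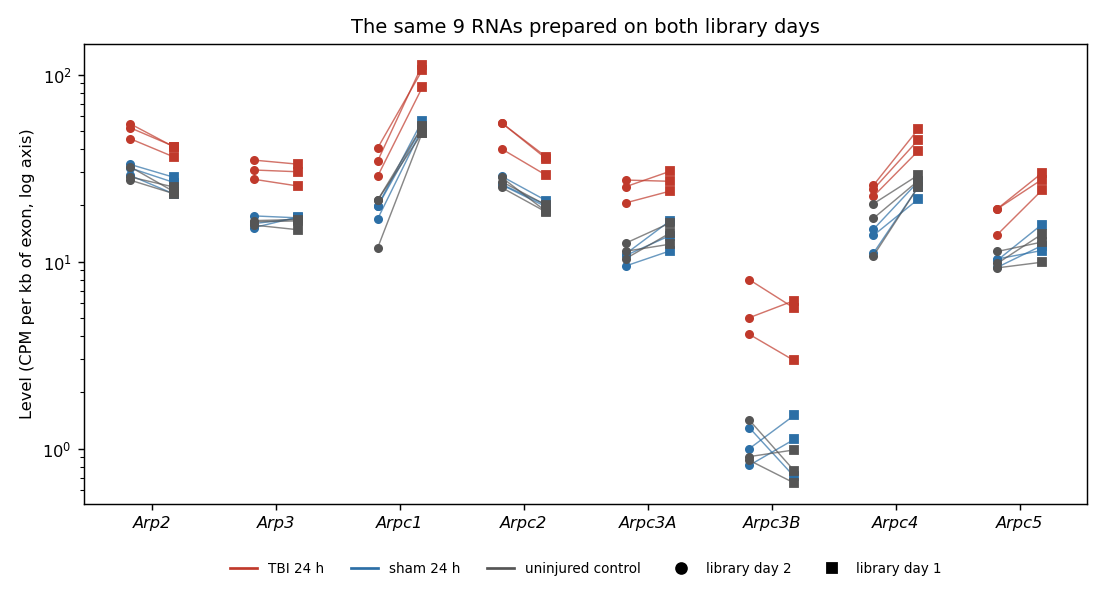
Level per kilobase of exon, in CPM per kb on a log axis, of each Arp2/3 complex gene in the 9 RNAs prepared on both days, with the library day 2 value (circle) joined to the library day 1 value (square) of the same RNA. The CPM values were scaled over the libraries of both days together. All 9 lines of Arpc1, Arpc4 and Arpc5 run up towards day 1 and all 9 of Arp2 and Arpc2 run down, while the TBI values lie above the sham and control values on both days.

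Over the 33 libraries of day 2 the Pearson correlation of log2 CPM between members was 0.68 to 0.98 over the 28 pairs, with a median of 0.89, and over the 31 libraries of day 1 it was 0.42 to 0.92, with a median of 0.80. The libraries share the TBI and sham groups, which the choice of members used, and pairs of genes share depth and scaling. With the group means removed the correlation was -0.23 to 0.85 on day 2 and -0.19 to 0.71 on day 1, with medians of 0.34 and 0.30. It was negative in 3 of 28 pairs on day 2, each with Arp2 (with Arpc1, Arpc3B and Arpc4), and in 2 pairs on day 1 (Arp2 with Arpc5 and Arpc3A with Arpc5). The highest was that of Arp3 and Arpc2 on day 2 and that of Arpc1 and Arpc4 on day 1. Arpc5 and Arpc3A had the lowest correlation of day 1, at 0.42.

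Among 10357 genes fitted on both days, 5 genes outside the complex were named as most like the members, by the lower of their 2 correlations with the mean of the members. They were the actin gene Act42A (0.98 over 33 libraries of day 2 and 0.97 over 31 libraries of day 1), capt, which recycles actin monomers (0.95 and 0.94), cib, an actin monomer binding protein with beta-thymosin repeats (0.94 and 0.95), the cofilin gene tsr (0.94 and 0.95) and CCT2, a subunit of the chaperonin that folds actin and tubulin (0.96 and 0.94). At 24 h on day 2 Act42A averaged 81.0 CPM in TBI and 17.2 CPM in sham, a log2 fold change of 2.23 ± 0.21, and cib averaged 303 CPM in TBI and 87.1 CPM in sham, a change of 1.80 ± 0.14. Of the 5, tsr was the only one that did not pass at 1 h, with a log2 fold change of 0.20 ± 0.15. At that time 4.98% of all genes passed as higher. The 5 were picked by correlation over TBI and sham libraries, with members chosen on that contrast. Their TBI against sham values follow in part from this choice and are a description.

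Counts of the related actin genes are set beside the shares of all genes that passed between TBI and sham. As higher these were 4.98%, 10.5%, 7.88%, 4.99% and 6.2% from 1 h to 24 h on day 2, and 7.61% at 24 h and 1.26% at 3 d on day 1. The 19 activators were subunits of the SCAR/WAVE, WASp and WASH complexes, Whamy, and proteins that act on these. Of the 19, 3 passed as higher after 1 h, 3 after 3 h, 4 after 6 h, 3 after 12 h and 4 after 24 h on day 2. As lower 1 passed at 3 h, where 6% of all genes did. On day 1 the counts were 3 higher at 24 h, 1 at 3 d and 0 from 7 d on. The list's median log2 fold change was 0.05 at 3 h and 0.20 at 24 h on day 2. Rac2, a GTPase that switches on SCAR/WAVE, passed as higher in 6 of 10 comparisons, with log2 fold changes of 1.38 ± 0.17 at 3 h and 1.02 ± 0.17 at 24 h on day 2. Cdc42, the GTPase that activates WASp, was 0.41 ± 0.09 at 3 h and 0.63 ± 0.09 at 24 h. Mtl, a Rac relative, was the gene that passed as lower at 3 h (-0.48 ± 0.11), and it passed as higher at 24 h (0.49 ± 0.11). Vrp1, the partner of WASp, was 0.65 ± 0.10 at 3 h and 0.14 ± 0.10 at 24 h, where it did not pass.

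Of the 4 genes that stabilise or undo branches, 3 passed as higher at 1 h, 3 h, 6 h and 12 h, 2 at 24 h on day 2, 3 at 24 h on day 1 and 1 at 3 d. Cortactin, which stabilises branches, was 0.82 ± 0.09 at 3 h and 0.69 ± 0.09 at 24 h on the log2 scale. GMF, which removes branches, was 0.66 ± 0.11 and 0.94 ± 0.12 at those times and was the gene that passed at 3 d. The coronin gene coro was 0.61 ± 0.10 at 3 h and 0.27 ± 0.10 at 24 h, where it did not pass, and its relative pod1 passed at no time.

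Of 9 genes for filament turnover and capping, 5 passed as higher after 1 h, 7 after 3 h, 6 after 6 h, 6 after 12 h and 7 after 24 h on day 2, and 7 at 24 h and 4 at 3 d on day 1, with none lower. The log2 fold changes of capt were 1.02 ± 0.09 at 3 h and 0.92 ± 0.09 at 24 h on day 2. The profilin gene chic was 0.61 ± 0.11 and 0.92 ± 0.11 at these times, and tsr was 0.57 ± 0.15 and 1.21 ± 0.15. The capping protein gene cpb was 0.57 ± 0.10 and 0.64 ± 0.10.

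Of 8 genes for unbranched filaments, at most 3 passed as higher at any time, that being at 3 h. The formin gene Frl was 1.30 ± 0.16 at 3 h and 0.60 ± 0.16 at 24 h, whereas the formin gene Fhos was -0.31 ± 0.11 at 3 h and passed as lower at 3 h, 6 h and 12 h. The elongation factor ena was 0.74 ± 0.11 at 3 h and 0.18 ± 0.11 at 24 h, and the nucleator spir passed at no time. Of 6 actin-related proteins outside the complex, some of which serve dynactin or chromatin remodelling, 5 had counts high enough to be tested. At most 2 of the 5 passed at any time, and Arp1, the dynactin filament subunit, was 0.40 ± 0.08 at 3 h and 0.31 ± 0.08 at 24 h. Arp5, Arp6 and Arp8 passed at no time. From 7 d on none of these 5 lists had a gene that passed in the edgeR fit, and at an unadjusted p under 0.05 they held 6 genes at 7 d, 3 at 10 d and 5 at 15 d, beside 6.44%, 7.49% and 6.54% of all genes.

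**Figure D5:**
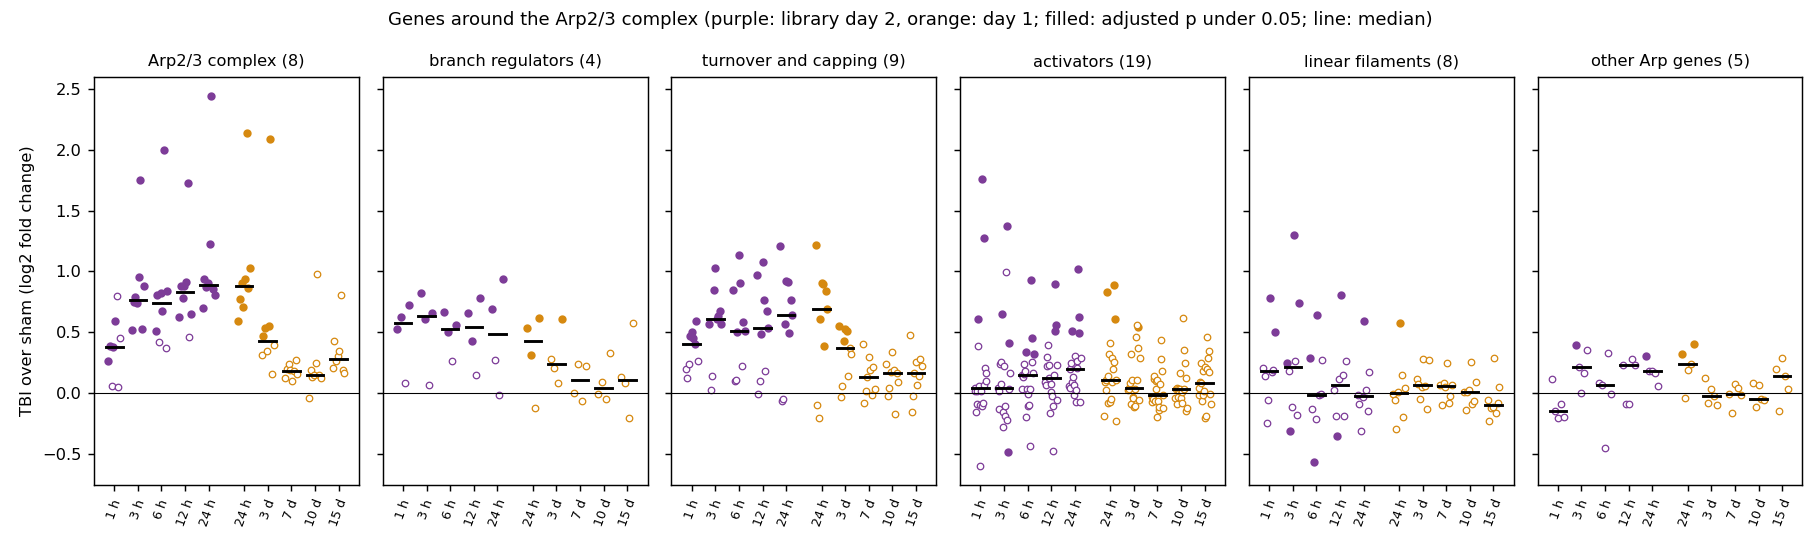
Log2 fold change of single genes in TBI over sham heads against time for the Arp2/3 complex and 5 lists of related actin genes, with filled points for genes that passed and a line for the median of the list. At 24 h on both days 8 of 8 complex genes and 7 of 9 turnover and capping genes are filled, while at most 4 of 19 activators are filled as higher at any time.

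Markers of other cell types were read beside these values, since heads hold brain, eye, fat body, muscle and blood cells. Of the 7 hemocyte genes, 0 passed as higher in TBI at any time in the edgeR fit, and 2 passed as lower at 1 h, beside 2.41% of all genes, and 1 at 6 h, beside 4.26%. At an unadjusted p under 0.05 the list held 5 genes in either direction after 1 h, 2 after 6 h and 0 at 24 h on both days, beside 17.4%, 22.6%, 20.8% (day 2) and 29.2% (day 1) of all genes. Their summed level at 24 h on day 2 was 165 to 249 CPM in TBI libraries and 134 to 266 CPM in sham libraries. Of 6 fat body genes tested, 2 or 3 passed as lower at each time of the first day, beside 2.41%, 6%, 4.26%, 3.63% and 2.2% of all genes on day 2 and 7.41% on day 1, with summed levels at 24 h on day 2 of 5529 to 7709 CPM in TBI and 6866 to 10573 CPM in sham. The fat body gene AkhR also passed as lower at 3 d on day 1 (-1.01 ± 0.17), beside 0.0946% of all genes. Of 8 neuron genes, 6 passed as lower at 24 h on day 1 and 0 at 24 h on day 2, beside 7.41% and 2.2% of all genes, with sums on day 1 of 6148 to 6846 CPM in TBI and 7454 to 11242 CPM in sham. The RNAs were the same on both days. All 8 log2 fold changes were negative on each, from -0.64 to -0.31 on day 1 and from -0.51 to -0.13 on day 2. Photoreceptor genes summed to 38188 to 49253 CPM in TBI and 48973 to 53309 CPM in sham at 24 h on day 2, glial genes to 1419.6 to 1829.9 CPM in TBI and 1536 to 2137 CPM in sham, and muscle genes to 2941 to 3677 CPM in TBI and 3247 to 3322 CPM in sham. Of the 8 glial genes 1 passed as lower after 1 h, 2 after 3 h and 3 after 6 h on day 2, beside 2.41%, 6% and 4.26% of all genes. After 24 h on day 1, 1 glial gene passed as lower, beside 7.41%. The glial identity factor gene repo was lower in TBI by a log2 fold change of -1.08 ± 0.14 at 1 h, -1.09 ± 0.14 at 3 h and -0.56 ± 0.14 at 6 h. The gene wrapper was at -0.63 ± 0.15 at 3 h and -0.62 ± 0.15 at 6 h, nrv2 at -0.64 ± 0.16 at 6 h, and the glial glutamate transporter gene Eaat1 at -0.45 ± 0.14 at 24 h on day 1. The gene moody, which acts in the glia of the blood-brain barrier, passed as higher at all 5 times of day 2, with log2 fold changes of 0.54 to 0.67. In the same RNAs at 24 h on day 1 moody did not pass (0.57 ± 0.24). Of 10 muscle genes tested on day 2 and 9 on day 1, Prm passed as higher from 6 h to 24 h on day 2 and after 24 h and 3 d on day 1 (0.75 to 1.12) and Mlp60A did so after 24 h on day 2 (0.56), while Mhc passed as lower after 12 h and, on both days, after 24 h. Of 8 photoreceptor genes, ninaE and Arr1 passed as lower at 12 h (-0.50 and -0.43), beside 3.63% of all genes. At 24 h on day 1 norpA did (-0.42), beside 7.41%. As higher in TBI, 4.98%, 10.5%, 7.88%, 4.99% and 6.2% of all genes passed from 1 h to 24 h on day 2. On day 1 that share was 7.61% at 24 h and 1.26% at 3 d. No gene of these 6 lists was at 0 in all libraries of a TBI group, and 1 fat body gene was at 0 in the sham libraries of 24 h on day 1. Whether the make-up of the heads had a part in the levels of the members was not tested.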

How the data were processed

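Whole-head polyA RNA was sequenced as 64 libraries from 55 RNAs, 9 of which were prepared on both library days, with a stranded kit per the labels' protocols. The number of RNAs is counted from the labels, while the series text gives 52. The authors deposited 1 table of gene counts without normalization. Per the submitters' processing notes FastQC, MultiQC, HISAT2, Picard, HTSeq and DESeq2 were used. No source used here gives their versions, the build and annotation used or how strand was handled. Reads that fit paralogs or genes on opposite strands may therefore be counted in either way.

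The 5 rows not assigned to a gene were left out of library sizes. Reads in the row for not aligned were 9.78% to 11.9% of a library's total on day 2 and 3.54% to 10.8% on day 1. Groups and library days were taken from the labels, and each library day was fitted on its own with 11 groups that share 1 estimate of the spread. Counts were filtered with filterByExpr, scaled by TMM and tested with edgeR 4.0.16 (robust quasi-likelihood F-test, limma 3.58.1, R 4.3.3). P-values were adjusted by Benjamini-Hochberg over all genes fitted, with a threshold of 0.05. The standard error of a log2 fold change was its size divided by the square root of F. The 9 RNAs of both days were fitted together with the RNA as a block. Library precision is limited by depth mainly for Arpc3B. The p-values measure the spread between pools of heads, except in the test between library days. There the RNA is a block, and they measure how the day difference varied between RNAs, with 1 preparation day on each side. The procedure was tested on simulated counts.

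Gene positions are from the Ensembl annotation of BDGP6.54, matched by gene ID for 17343 of 17481 genes, and serve as annotation only. The members and lists were chosen with earlier results of these data known. The text names all 8 members, up to 4 genes of each related list, those with the lowest adjusted p at most times, and the 5 other genes whose log2 CPM correlated best with the mean standardised log2 CPM of the members on both days. Drp1 and WDR79 are named because they overlap members.

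Alternatives were RLE scaling, scaling without mitochondrial genes, no filter, DESeq2 1.42.0, a replicate block, fits restricted to the 2 groups compared and leaving out each library, and for 24 h the sum of both libraries of an RNA. The series text calls the sham and TBI animals paired but does not say what a replicate number shares. Same-numbered TBI and sham libraries correlated at over 0.1 in every pair in 3 of 5 comparisons on day 2 and 4 of 5 on day 1, of which 15 d had only 2 pairs. Those 2 pairs had the same correlation (0.21) and are not separate values. Same-numbered sham and control libraries did so in 0 of 5 on each day. As this did not hold in every comparison, the numbers were not taken to pair the samples, and the replicate block is an alternative. That block gives a replicate number the same effect at all times and in the controls. It therefore does not model pairs of TBI and sham within a time.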

Additional observations from a re-analysis of the deposited data

Results flagged for a closer look

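The TBI effect on Arpc5 differed between the times of library day 1 in the joint edgeR test across all genes. Its log2 fold change of TBI over sham at 10 d minus that at 24 h was -0.90 ± 0.17, from 3 libraries in each of the 4 groups. The contrast between TBI and sham was among the results known when the members were chosen, so this is given as a value. The same difference was negative in all 8 members, from -0.56 ± 0.13 in Arpc2 to -1.16 ± 0.43 in Arpc3B. The joint test passed for 0 to 7 members when 1 library was left out, and DESeq2 called 8. Arpc5 was also the member that passed as higher in sham than in control flies from 3 d on, where 10.3% to 19.3% of all genes did.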

How the results depend on the processing

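Scaling, filter, test and samples in the fit were varied for the counts of members that passed and for the members' changes, and not for levels, correlations, the Arpc3B share, the related genes or the markers. The number of members that passed between TBI and sham stayed within 1.5 times at 3 h, 6 h, 12 h and 24 h in all these settings. Without a filter on low counts it was 1 in place of 4 at 1 h. At 3 d it was 1 in a model of only the 2 groups compared, in place of 4. Between sham and control the 2-group model gave 0 members at 3 d, 7 d and 15 d, in place of 1, 2 and 2, and no filter gave 1 at 7 d. DESeq2 called a TBI effect that differed between times on day 1 in 8 members, in place of 1. The cause of these shifts was not tested.

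With the replicate number as a block, 7 members passed at 3 h between TBI and sham in place of 8, and no count moved by more than 1.5 times. As the block is shared by all times, these counts do not show what pairing within a time would give. The same-numbered TBI and sham libraries correlated at -0.19 to 0.70 (15 pairs, median 0.22) on day 2 and at 0.08 to 0.49 (14 pairs, median 0.22) on day 1. Both pairs of 15 d had 0.21 and are not separate values.

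Leaving out 1 library gave 1 to 4 members at 1 h, with fewer than 4 without TBI replicate 1 or sham replicate 1, 2 or 3. It gave 7 to 8 members at 3 h, 6 to 7 at 12 h and 1 to 4 at 3 d, where 1 passed without sham replicate 1, 2 or 3 or TBI replicate 2. Between sham and control it gave 0 to 1 at 3 h (1 without control replicate 1), 0 to 1 at 3 d (0 without control replicate 1 or sham replicate 3), 1 to 2 at 7 d (1 without control replicate 1 or 2 or sham replicate 2 or 3) and 1 to 2 at 15 d (1 without control replicate 2 or either sham replicate). The test of a TBI effect that differs between times on day 1 gave 0 to 7 members, with 7 without TBI 24 h replicate 2, 2 without TBI 7 d replicate 1, and 0 without sham 24 h replicate 1 or 2, TBI 24 h replicate 1 or 3, sham 7 d replicate 3, sham 10 d replicate 1 or 2, TBI 10 d replicate 2 or sham 15 d replicate 2.

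The library-day difference of Arp3 (log2 0.00392) turned negative, to -0.00746, with mitochondrial genes left out of the scaling, and ranged from -0.0115 to 0.0264 when 1 RNA was left out, with negative values of -0.00713, -0.00687, -0.00245 and -0.000179 for 4 further RNAs. The other members kept their direction there. Depth limits Arpc3B most, with 7 to 141 reads per library on day 2 and 9 to 136 on day 1.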
